A study of Homo sapiens with 11 samples.

Results

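The whole of the transcriptome of PC3 cells was compared between ST6GAL1 overexpression and control, beyond the interferon, inflammatory and mesenchymal genes. The members are the 6 PC3 libraries, 3 of each kind, of the 11 RNA sequencing libraries analysed here, and every gene that passed an expression filter in them. PC3 is a human prostate cancer cell line derived from a skeletal metastasis. The control cells were transduced with negative control lentiviral particles and the other cells with particles carrying ST6GAL1, and stable populations were kept, so that both groups had been transduced. The other 5 libraries came from DU145 prostate cancer cells handled in the same way, 3 controls and 2 with overexpression, and they are used only to set the change in PC3 beside that in a second line. Nothing in the sources used here says how many independent transductions stand behind the 3 libraries of a group, so p-values measure the spread between these libraries, which may be technical.

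ST6GAL1 is a sialyltransferase of the Golgi that caps galactose at the ends of N-glycans with sialic acid. Many receptors, adhesion molecules and secreted proteins carry such glycans, and the enzyme is often raised in carcinoma. In prostate cancer, sialylated glycans at the cell surface have been studied for their part in bone metastasis.

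The PC3 libraries held between 14737057 and 18201359 counts, at which a count of 3, used as the floor, is 0.165 to 0.204 CPM, or counts scaled to the size of the library. Floors cover counting error only. Values are CPM after TMM normalization (normalized CPM), given for control replicates 1, 2 and 3 and then for overexpression replicates 1, 2 and 3. Pearson's r of log2 CPM across genes was between 0.9949 and 0.9956 within a group and between 0.9861 and 0.988 across groups. The keratins KRT8 and KRT18, which mark luminal epithelium, were read in all 6 libraries. KLK3, which encodes prostate specific antigen, had a count of 0 in all 6. Of 23 markers of blood, endothelial and stromal cells, 18 stayed under 1 CPM in every library, and 6 of those had a count of 0 throughout, CD3E, MS4A1, CSF1R, CD163 and MYH11 among them. Their summed level was 65.2 to 68.3 CPM in control and 64.6 to 72.5 CPM in overexpressing cells. Of the 5 that were tested, COL3A1, a fibrillar collagen gene, was called higher, at 3.81, 3.74 and 3.99 CPM in control and 12.6, 16.9 and 15.8 CPM in overexpressing cells (log2 fold change 1.98, adjusted p = 1.79e-17, edgeR), while COL1A1 was lower and under the fold change threshold set out below (log2 fold change -0.47, adjusted p = 3.96e-07, edgeR).

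The targeted gene was read first. ST6GAL1 (chr3:186930526-187078553, GRCh38) stood at 2.97, 2.09 and 3.07 normalized CPM in the control libraries and at 33.4, 31.8 and 32.6 in the overexpression libraries (log2 fold change 3.58, standard error 0.102, adjusted p = 1.37e-28, edgeR's quasi-likelihood test). The groups did not overlap, and the mean went from 2.71 ± 0.538 to 32.6 ± 0.814 (SD, n = 3 each). These counts cannot tell RNA of the transgene from that of the endogenous gene. Of 20 sialyltransferases 12 were tested, and 1 other was called, ST6GALNAC2, which adds sialic acid to the core of O-glycans. It was read at 1.18, 1.71 and 1.96 and then at 2.39, 3.59 and 3.54 normalized CPM (log2 fold change 1.00, adjusted p = 0.000302).

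In all, 13544 genes were tested. A gene was called when its Benjamini-Hochberg adjusted p was under 0.05 and its absolute log2 fold change over 0.58, and 728 genes were called, which is 5.38% of those tested. Of these, 489 (3.61%) were higher and 239 (1.76%) lower with ST6GAL1 overexpression. At an adjusted p under 0.05 alone, 18.8% of tested genes were higher and 18.5% lower, so that the fold change sets the call for most genes. Large changes lay mostly on one side, since 99 genes rose by more than 1.5 on the log2 scale and 19 fell by more than 1.5. The 3 libraries of a group did not overlap those of the other in 711 of the 728 called genes, where 46.2% of all tested genes had groups that did not overlap. Of the called genes 64 stood on the lists of interferon, inflammatory and mesenchymal genes, which is 17.5% of the 365 tested genes of these lists. The other 664, or 91.2% of the called genes, are those from which most of the genes below are taken. The plot of fold change against level shows both sides of the change.

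The gene with the largest rise outside those lists, among genes with a mean of at least 10 normalized CPM in either group, was CYP1B1, a cytochrome P450 that oxidises oestrogens, retinoids and polycyclic hydrocarbons. It was read at 0.336, 1.14 and 0.392 normalized CPM in control and at 11.8, 8.96 and 9.43 in overexpressing cells (log2 fold change 4.01, standard error 0.224, adjusted p = 3.59e-16). A second enzyme, ACHE, which breaks down acetylcholine, was read at 14.2, 15.8 and 11.8 and then 91.9, 95.5 and 95.6 (log2 fold change 2.76, standard error 0.0594, adjusted p = 1.51e-32). HPGD, which inactivates prostaglandins, went from 66.2, 69.1 and 63.2 to 154, 162 and 161 (log2 fold change 1.26, adjusted p = 5.09e-28). A gap between the groups was required by the rule that named CYP1B1 and ACHE. HPGD, named by its p, had a gap too.

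Several of the largest rises were genes of secreted proteins, which were not counted as a group. REG4, a lectin of intestinal enteroendocrine and goblet cells, was read at 2.63, 2.54 and 2.48 normalized CPM in control and 22.6, 18.3 and 20.2 in overexpressing cells (log2 fold change 2.98, standard error 0.117, adjusted p = 9.02e-24). CST1, a cystatin that inhibits cysteine proteases, was read at 5.71, 5.14 and 5.23 and 37.5, 36.2 and 31.9 (log2 fold change 2.71, adjusted p = 1.11e-26). The control libraries of REG4 lie within a narrow band, with an SD of 0.0747 normalized CPM. IGFBP5, which binds insulin-like growth factors, was at 76.2 ± 4.06 normalized CPM in control cells and 221 ± 2.54 with overexpression (SD, n = 3 each, log2 fold change 1.54, adjusted p = 9.77e-32). CLU, an extracellular chaperone, was read at 89.3, 92.7 and 99.2 and 199, 198 and 195 (log2 fold change 1.08, adjusted p = 1.11e-26). UTS2B, a urotensin-like peptide, was read at 2.07, 3.49 and 2.88 and 9.41, 10.3 and 10.4 (log2 fold change 1.85, adjusted p = 4.5e-14).

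Others of the largest rises encode proteins of the cell surface or the basement membrane zone. ST14 encodes matriptase, a membrane serine protease of epithelia, and was read at 2.91, 2.54 and 2.35 normalized CPM in control and 14.9, 16.6 and 17.9 in overexpressing cells (log2 fold change 2.66, standard error 0.121, adjusted p = 1.58e-21). LAD1, a protein of the basement membrane zone, was read at 2.46, 2.54 and 3.40 and 11.5, 11.3 and 10.3 (log2 fold change 1.98, adjusted p = 7.09e-16). CXADR, an adhesion molecule at tight junctions and the receptor of coxsackieviruses and adenoviruses, was read at 5.77, 5.58 and 5.69 and 22.4, 21.2 and 22.6 (log2 fold change 1.95, adjusted p = 2.67e-21). For these 3 genes, as for the other largest rises, groups that do not overlap were a condition of the naming. CDH3, the P-cadherin of basal epithelium, was read at 6.55, 5.46 and 6.08 and 22.9, 22.8 and 22 (log2 fold change 1.90, adjusted p = 6.47e-21). DCHS2, a large cadherin related to Dachsous of the fly, was read at 4.93, 5.90 and 5.16 and 18.3, 19.8 and 19.4 (log2 fold change 1.85, adjusted p = 1.66e-19).

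Among receptors and nuclear factors, NPY1R, a receptor of neuropeptide Y, was read at 23.2, 19.2 and 21.4 normalized CPM in control and 85.2, 84.4 and 85.5 in overexpressing cells (log2 fold change 2.00, standard error 0.0531, adjusted p = 1.47e-29). HLF, a circadian factor of the PAR bZIP family, was read at 30.4, 32.3 and 26.1 and 95.5, 105 and 107 (log2 fold change 1.79, adjusted p = 1.64e-22). S100A2, a calcium binding protein of basal keratinocytes, was read at 23.4, 25.2 and 25.3 and 74.6, 72.8 and 72.7 (log2 fold change 1.58, adjusted p = 8.22e-27). A gap between the groups was a condition for naming NPY1R and HLF. S100A2, named by its p, had a gap too.

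Among genes with a mean of at least 10 normalized CPM in either group and outside those lists, the falls were smaller than the rises. HOXB9, a posterior homeobox gene, fell most by this limit, from 77.1, 78.4 and 83.0 normalized CPM in control to 26.9, 27.1 and 25.7 in overexpressing cells (log2 fold change -1.58, standard error 0.0497, adjusted p = 5.75e-27). GBX2, another homeobox gene, was read at 89.3, 86.3 and 82.7 and 44.3, 39.5 and 42.3 (log2 fold change -1.04, adjusted p = 6.98e-22), and POU2F2, which encodes a factor of B cells, at 15.3, 16.5 and 15.1 and 7.37, 7.30 and 7.40 (log2 fold change -1.09, adjusted p = 8.49e-13). These 3 transcription factor genes, like the other largest falls, were named on the condition that their groups did not overlap. CCNA1, a cyclin of the germ line, was read at 12.3, 11.2 and 14.4 and 5.18, 4.37 and 5.25 (log2 fold change -1.36, adjusted p = 8.79e-13). SGK1, a kinase induced by glucocorticoids and serum, was read at 17.4, 18.0 and 18.4 and 8.59, 8.68 and 8.98 (log2 fold change -1.03, adjusted p = 3.84e-13). ANKRD1, a target of the YAP coactivator, was read at 21.2, 21.9 and 18.2 and 10.9, 9.23 and 9.99 (log2 fold change -1.03, adjusted p = 7.28e-13).

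The extracellular genes CCBE1 (log2 fold change -1.21, adjusted p = 1.27e-18) and CCDC80 (log2 fold change -1.09, adjusted p = 1.81e-13) fell too, as did RAB3B, a GTPase of secretory vesicles (log2 fold change -1.09, adjusted p = 4.27e-19), and PDZRN3, a ubiquitin ligase (log2 fold change -1.19, adjusted p = 1.01e-10). LOC105373989 (log2 fold change -1.08, adjusted p = 3.3e-11), a gene without a symbol that RefSeq gives as protein coding, and the noncoding gene LINC00707 (log2 fold change -1.03, adjusted p = 1.03e-11) complete the 12 largest falls by this limit. PLAU, the urokinase plasminogen activator, was an abundant mRNA that fell, read at 1053, 1063 and 1064 normalized CPM in control and 631, 644 and 643 in overexpressing cells (log2 fold change -0.73, standard error 0.0233, adjusted p = 8.22e-27). The SD of PLAU was 6.02 and 7.35 normalized CPM (n = 3 each), far less than the distance between the groups.

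**Figure D1:**
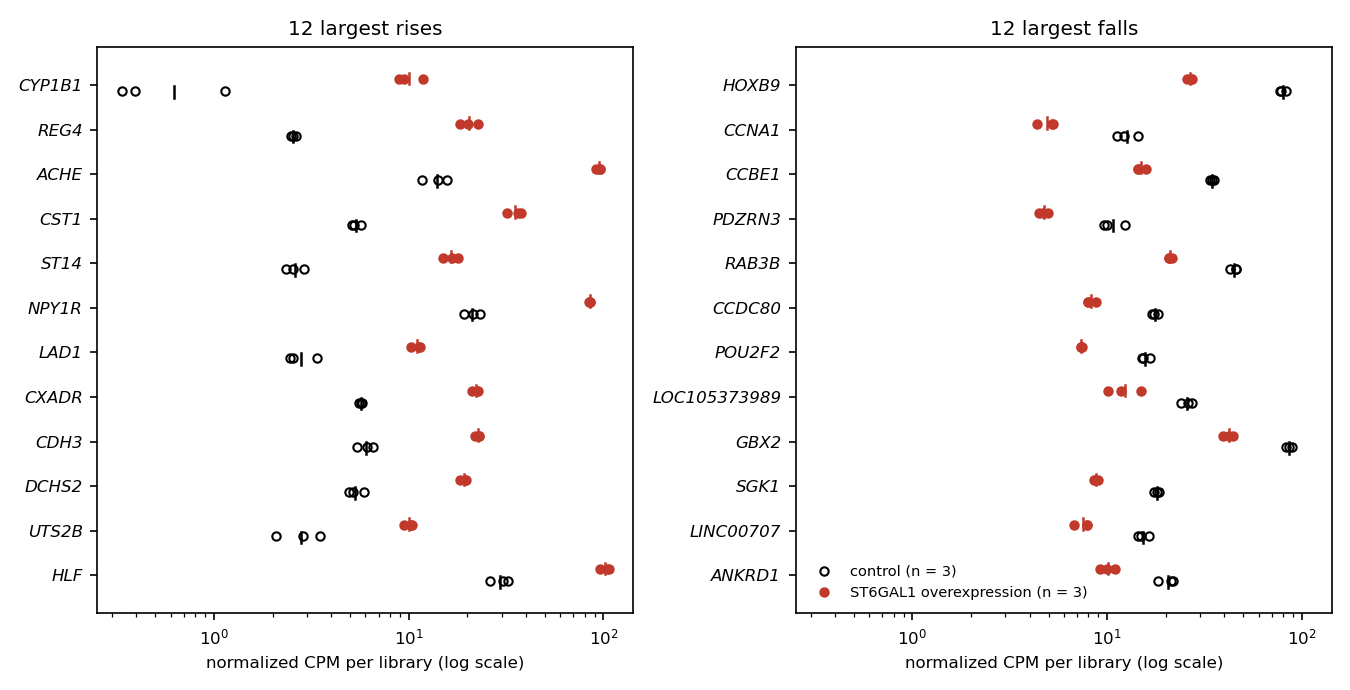
Normalized CPM per library on a log scale for the 12 genes with the largest rises (left) and the 12 with the largest falls (right) among called genes that reached a mean of 10 normalized CPM in either group, did not overlap between groups and stood outside the interferon, inflammatory and mesenchymal lists, with control libraries as open circles and overexpression libraries as red points, n = 3 each, and a short line at each mean. The groups are apart for every gene shown because the choice required it. Within this limit the rises span up to a log2 fold change of 4.01 where the falls reach -1.58.

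Genes of gastrointestinal epithelium and mucins held the highest share of calls among the larger lists. These genes encode gel-forming and membrane mucins and the trefoil and lectin peptides secreted with them. Of 49 such genes 16 were tested, 9 were called higher and 1 lower, which is 62.5% against 5.38% of all genes. Their median log2 fold change was 0.72 against -0.00159 for all genes. The list was chosen with earlier results of these data known and holds REG4, named above for its rise, so these shares are a description. Beside REG4, the list includes MUC3A, a membrane mucin of the gut, read at 7.90, 7.68 and 8.11 normalized CPM in control and 23.5, 24.5 and 24.8 in overexpressing cells (log2 fold change 1.62, standard error 0.0821, adjusted p = 6.51e-20). MUC5B, a gel-forming mucin of the airway, was read at 24.1, 29.2 and 24.4 and 62.6, 68.7 and 58.6 (log2 fold change 1.30, adjusted p = 4.13e-16). TSPAN8, a tetraspanin of gut epithelium and of several carcinomas, was read at 48.4, 52.5 and 54.0 and 122, 124 and 133 (log2 fold change 1.29, adjusted p = 1.78e-26). All 3 genes were expressed in the control cells already, and TSPAN8 was the 1 gene called of 21 tetraspanins tested.

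The other members called higher were MUC5AC (0.97), AGR2 (0.79), MUC1 (0.73), TFF3 (0.84) and CEACAM6 (0.71), with log2 fold changes in parentheses. AGR2, a disulphide isomerase that helps to fold mucins, was the most abundant, at 159, 185 and 163 and then 283, 296 and 297 normalized CPM. The call of CEACAM6, read at under 2 normalized CPM in every library, was lost in 8 of 13 alternatives, limma-voom and DESeq2 among them. GKN2, a gastrokine of the stomach, went the other way, from 1.85, 2.16 and 2.42 to 0.750, 0.608 and 1.2 (log2 fold change -1.32, adjusted p = 0.000123). The summed level of the 16 genes was 317.4 to 359.8 normalized CPM in the control libraries and 620.6 to 651.8 in the overexpression libraries.

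The promoter window of REG4 is shown because it holds the letters of a TATA box, a core promoter element that lies just before the start of some genes. The RefSeq start site window of REG4 in GRCh38.p14 (chr1:119811411-119811710, minus strand) is printed 5′ to 3′ from 250 bases before to 50 after the start, with TATAAA in capitals at position -31.
REG4: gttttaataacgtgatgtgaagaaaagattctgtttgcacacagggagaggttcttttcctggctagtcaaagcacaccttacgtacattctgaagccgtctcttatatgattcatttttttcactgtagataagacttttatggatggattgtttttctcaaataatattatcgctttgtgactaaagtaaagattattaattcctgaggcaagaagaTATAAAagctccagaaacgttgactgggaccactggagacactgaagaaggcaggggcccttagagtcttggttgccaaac
TATAAA was found on either strand in 12.4% of the promoter windows of genes called higher and in 9.47% of those called lower, against 6.37% for tested genes and 11.5% for all 35116 windows of the table. Of the 728 called genes 526 had a window. This is a count of letters, and no test was run on it.

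Epithelial genes were then looked up, by a list written after the values above had been seen, so that their counts are a description. The list holds 40 genes for junctions, polarity, apical proteases and the transcription and splicing factors of epithelium, of which 34 were tested. CDH1, which encodes E-cadherin, was read at 8.85, 9.01 and 9.68 normalized CPM in control and 24.4, 23.9 and 23.0 in overexpressing cells (log2 fold change 1.37, standard error 0.0804, adjusted p = 7.85e-18). GRHL2, a grainyhead factor that keeps the epithelial program active, was read at 0.280, 0.507 and 1.11 and 4.77, 5.25 and 5.50 (log2 fold change 3.06, standard error 0.25, adjusted p = 2.7e-13). ESRP1, a splicing factor of epithelia, was read at 2.02, 2.22 and 2.16 and 9.0, 8.74 and 9.24 (log2 fold change 2.07, adjusted p = 1.73e-15). For these 3 genes every overexpression library stood at more than 2 times the highest control library.

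In all 16 of the 34 genes were called higher and 0 lower in edgeR, and limma-voom and DESeq2 gave the same numbers on the same counts. Of all tested genes 3.61% were called higher. The 16 include ST14, LAD1, CXADR and CDH3, named above for their large rises, so the count is fixed in part by the choice and is a description. A further 8 genes had an adjusted p under 0.05 and a rise under the fold change threshold. At an unadjusted p under 0.05 there were 26 higher and 0 lower. Among the 16 were the tight junction and polarity genes CLDN7 (1.82), CRB3 (1.83), TJP3 (1.54) and CXADR (1.95), the receptor EPHA1 (2.06), the clathrin adaptor AP1M2 (2.43), the factor EHF (1.33) and the transport protein MAL2 (0.60), with log2 fold changes in parentheses. PRSS8, a channel activating protease that works with matriptase, had counts of 3, 1 and 3 in control and 32, 26 and 20 in overexpressing cells, and FXYD3, a regulator of the sodium pump, had counts of 3, 4 and 3 and then 28, 27 and 27. The genes that were called had been low, with a median of 1.69 normalized CPM in control, and those that were not called had a median of 26.2. This contrast is not particular to epithelial genes. Of all tested genes, 16.8% in the lowest quintile of expression were called, against 1.29% in the highest. The control level is also the base of the fold change, so the contrast is fixed in part by the call. EPCAM (0.12, adjusted p = 0.23), ESRP2 (-0.06, adjusted p = 0.249) and ELF3 (-0.08, adjusted p = 0.397) were among those that did not pass.

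The repressors of epithelial genes did not pass the call. ZEB1 was read at 35.9, 37.6 and 38.1 normalized CPM in control and 36.7, 36.3 and 33.3 in overexpressing cells (log2 fold change -0.07, adjusted p = 0.361). SNAI2 was read at 10.9, 9.96 and 11.5 and 9.14, 6.80 and 8.67 (log2 fold change -0.41, adjusted p = 0.00235), lower in every overexpression library but under the fold change threshold. ZEB2 (log2 fold change -0.28, adjusted p = 0.388), SNAI1 (log2 fold change -0.43, adjusted p = 0.0786) and TWIST1 (log2 fold change 0.19, adjusted p = 0.0992) did not reach an adjusted p of 0.05.

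**Figure D2:**
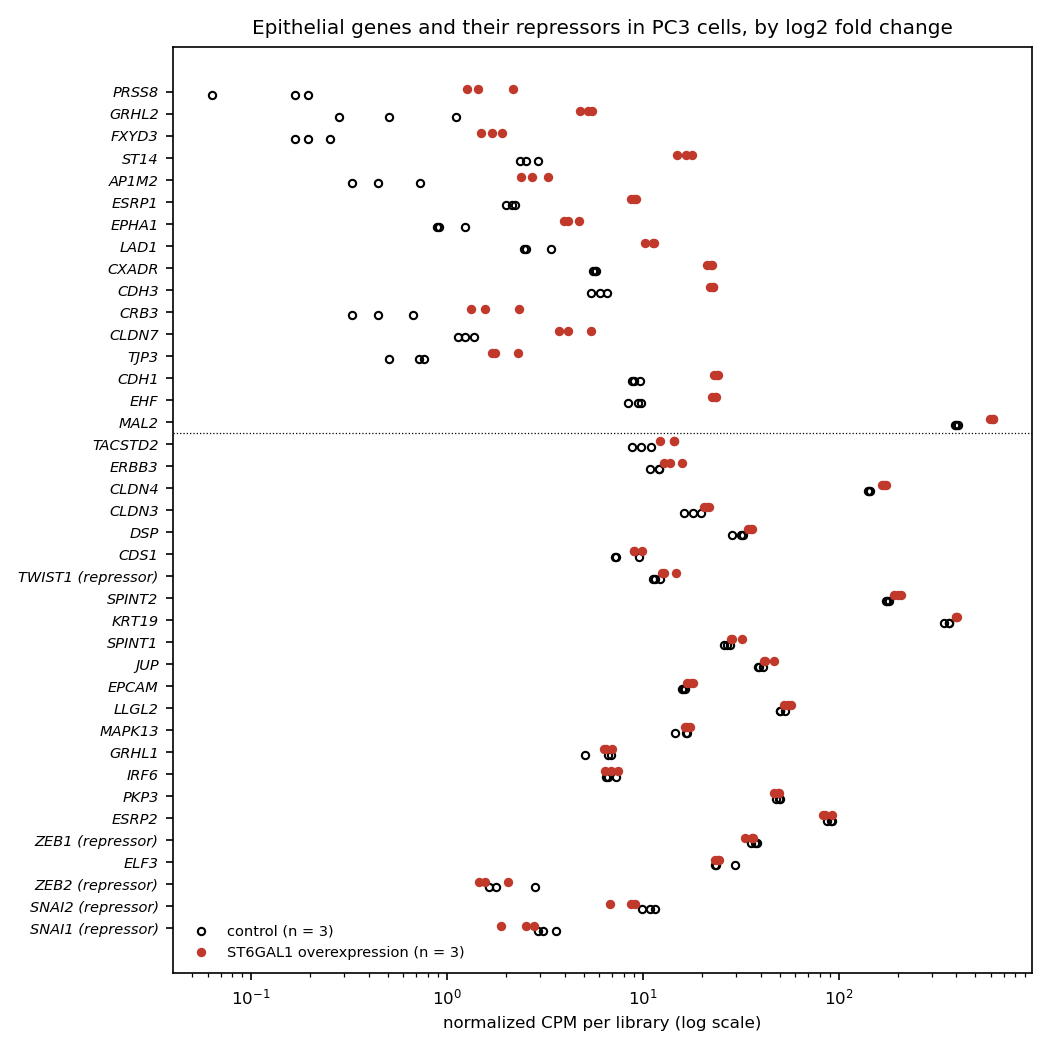
Normalized CPM per library on a log scale for 34 tested epithelial genes and 5 repressors, ordered by log2 fold change, with control as open circles and overexpression as red points, n = 3 each. The 16 genes above the dotted line were called higher, and most of them start from low control levels, as called genes in general gather at low levels. The genes below it, the repressors included, moved by less than the fold change threshold.

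ZEB and SNAI factors are known to bind the E-box CACCTG in epithelial promoters, so windows of 4 called genes with this motif are shown, again as RefSeq windows of GRCh38.p14 from 250 bases before to 50 after a start site, 5′ to 3′. They are CRB3 (chr19:6464021-6464320, plus strand), a second start site of CLDN7 (chr17:7262429-7262728, minus strand), AP1M2 (chr19:10587263-10587562, minus strand) and LAD1 (chr1:201399275-201399574, minus strand). Capitals mark CACCTG and its reverse complement CAGGTG.
CRB3: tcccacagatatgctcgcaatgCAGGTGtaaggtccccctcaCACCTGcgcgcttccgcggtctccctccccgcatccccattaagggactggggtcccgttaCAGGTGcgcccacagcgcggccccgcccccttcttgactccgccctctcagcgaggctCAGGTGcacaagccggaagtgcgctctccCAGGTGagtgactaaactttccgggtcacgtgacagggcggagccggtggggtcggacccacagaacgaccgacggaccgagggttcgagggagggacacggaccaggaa
CLDN7: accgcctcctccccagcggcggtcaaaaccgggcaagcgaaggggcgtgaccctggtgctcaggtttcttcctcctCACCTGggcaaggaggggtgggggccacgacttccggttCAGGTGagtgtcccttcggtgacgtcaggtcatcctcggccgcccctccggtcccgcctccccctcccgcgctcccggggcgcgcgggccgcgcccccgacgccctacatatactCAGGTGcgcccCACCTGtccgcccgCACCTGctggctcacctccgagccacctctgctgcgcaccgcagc
AP1M2: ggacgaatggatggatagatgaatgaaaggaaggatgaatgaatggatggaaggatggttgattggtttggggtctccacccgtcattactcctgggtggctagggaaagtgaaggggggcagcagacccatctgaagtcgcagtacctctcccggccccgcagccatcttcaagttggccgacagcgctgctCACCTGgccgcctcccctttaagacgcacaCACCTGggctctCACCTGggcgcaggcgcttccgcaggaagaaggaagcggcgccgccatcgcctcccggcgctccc
LAD1: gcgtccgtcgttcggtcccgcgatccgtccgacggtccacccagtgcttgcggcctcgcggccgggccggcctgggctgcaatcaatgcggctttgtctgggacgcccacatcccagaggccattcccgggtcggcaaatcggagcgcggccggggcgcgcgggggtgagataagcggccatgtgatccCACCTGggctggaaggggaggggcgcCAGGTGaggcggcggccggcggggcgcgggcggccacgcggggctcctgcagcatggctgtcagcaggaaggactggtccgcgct
There were 5 matches in CRB3, between positions -228 and -60 from the start, 5 in CLDN7, 3 in AP1M2, between -57 and -15, and 2 in LAD1, at -61 and -35. Of the 16 called epithelial genes 8 had a window, and the motif was in the windows of 6 of these. Of the tested epithelial genes that were not called 9 had a window, and the motif was in those of 7. Counted by window, the motif was in 54.5% of 11 windows of the called genes and in 63.6% of 11 windows of the others. It was found in 24.4% of windows of all genes called higher, 20.5% of those called lower and 18.6% of those tested. No test was run on these shares.

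Prostate luminal and basal genes moved in both directions. Of 26 luminal and androgen response genes tested 4 were called higher and 0 lower in edgeR, as with limma-voom and DESeq2. This is 15.4% called, against 5.38% of all genes. The median log2 fold change was 0.10, and 11 were higher and 5 lower at an unadjusted p under 0.05. FOLH1, which encodes prostate specific membrane antigen, was read at 2.46, 2.47 and 3.20 normalized CPM in control and 7.78, 7.02 and 6.89 in overexpressing cells (log2 fold change 1.42, standard error 0.148, adjusted p = 2.3e-10). HOXB13, a homeobox gene of the prostate lineage, was read at 525, 572 and 559 and 837, 829 and 851 (log2 fold change 0.60, adjusted p = 4.19e-22), and its log2 fold change slipped to 0.57 without control replicate 1. STEAP4 (log2 fold change 2.13, adjusted p = 2.02e-05), a metalloreductase, and TMPRSS2 (log2 fold change 0.70, adjusted p = 0.00186), a serine protease, were the others, and TMPRSS2 fell under the threshold, at 0.55, without overexpression replicate 3.

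Of 16 basal and squamous genes 3 were called higher and 1 lower, which is 25% against 5.38% of all genes. KRT15, a keratin of basal cells, was read at 13.4, 14.7 and 14.3 normalized CPM in control and 28.7, 27.3 and 28.9 in overexpressing cells (log2 fold change 1.00, adjusted p = 3.24e-15). DSC3, a desmosomal cadherin, was read at 112, 110.2 and 115 and 167, 171 and 166 (log2 fold change 0.59, adjusted p = 1.73e-18), close to the threshold, and was not called without control replicate 2 or without overexpression replicate 2. LAMB3, a chain of the laminin under epithelia, went the other way, at 224, 213 and 219 and 141, 140.1 and 132 (log2 fold change -0.67, adjusted p = 1.64e-20). CLDN11, a claudin, fell among the 27 tight junction genes tested (log2 fold change -0.64, adjusted p = 6.51e-20), where 4 others were called higher. Of these 27 genes 18.5% were called, against 5.38% of all genes.

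HOX genes set position along the body axis. Of 27 tested 6 were called lower and 1 higher, against 1.76% and 3.61% of all genes, and the median log2 fold change was -0.25. Beside HOXB9, HOXA11 was read at 23.0, 22.5 and 22.7 normalized CPM in control and 12.6, 13.7 and 14 in overexpressing cells (log2 fold change -0.75, adjusted p = 6.07e-11), and HOXC8 at 5.99, 6.34 and 5.36 and 3.68, 3.65 and 2.53 (log2 fold change -0.84, adjusted p = 2.37e-05). HOXB8 (-1.33) and HOXC10 (-1.28) were read at under 3 normalized CPM, and HOXA5 (-0.59) fell under the threshold when control replicate 2, overexpression replicate 1 or overexpression replicate 3 was left out. HOXB13 is the 1 HOX gene called higher, and 2 HOX genes were higher at an adjusted p under 0.05. HOXB9 and HOXB13 lie in the same cluster on chromosome 17, at 48621156 to 48626358 and 48724763 to 48728750, and changed in opposite directions.

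Among receptors and enzymes of neurotransmitters 4 were called higher and 4 lower of 25 tested, which is 32% against 5.38% of all genes. The list leaned down, with 17 of the 25 below 0 and a median log2 fold change of -0.19. CHRM3, a muscarinic acetylcholine receptor, was read at 9.58, 9.07 and 9.61 normalized CPM in control and 22.9, 22.3 and 25.4 in overexpressing cells (log2 fold change 1.32, standard error 0.082, adjusted p = 6.28e-17), and so rose together with ACHE, which breaks down its ligand. GRIK2, a kainate receptor, passed in edgeR (log2 fold change 0.88, adjusted p = 0.0349) but not with DESeq2, nor when any of 4 libraries was left out. The adrenergic receptor gene ADRB1 was lower (log2 fold change -0.75, adjusted p = 4.05e-07). GABRA3, a subunit of the GABA receptor, was read at 7.11, 6.28 and 6.41 and 1.64, 2.60 and 2.02 (log2 fold change -1.64, adjusted p = 6.97e-11). GABRQ, another subunit on chromosome X, had counts of 19, 18 and 11 in control and 0, 1 and 1 in overexpressing cells, and was the only gene of those tested with at least 10 counts in every library of a group and at most 1 in every library of the other. Of 8 neuroendocrine markers tested none was called by edgeR, where 5.38% of all genes were. At an adjusted p under 0.05, 3 of these markers were higher and 2 lower, with smaller changes. At an unadjusted p under 0.05 they were 3 and 3, and limma-voom and DESeq2 called none as well.

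Potassium channels were called at a similar share, 7 higher and 3 lower of 31 tested, which is 32.3% against 5.38% of all genes. KCND2, a voltage gated channel, was read at 3.08, 3.30 and 2.88 normalized CPM in control and 6.75, 7.13 and 7.08 in overexpressing cells (log2 fold change 1.18, adjusted p = 5.87e-09). The leak channels KCNK12 (2.14) and KCNK15 (1.31) and the sodium activated channel KCNT2 (2.01) rose further from lower levels, and KCNG3 (-1.15) fell. Solute carriers stood near the background, with 9 higher and 2 lower of 225 tested. Their most significant rise was that of SLC12A2, the sodium potassium chloride cotransporter of secretory epithelia, from 119.7, 124 and 122.8 to 202, 201 and 200.3 (log2 fold change 0.72, adjusted p = 4.34e-22).

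Genes of axon guidance and of the Wnt pathway were called in both directions, at 11.5% and 13.2% against 5.38% of all genes. Of 52 semaphorins, plexins, ephrins and their receptors 21 were higher and 12 lower at an adjusted p under 0.05. Of these, 3 were called higher, led by EPHA1, and 3 lower, led by PLXNA2, which was read at 12.9, 13.1 and 12.3 normalized CPM in control and 6.41, 6.47 and 6.58 in overexpressing cells (log2 fold change -0.98, adjusted p = 1.05e-10). Of 38 Wnt pathway genes 3 were called higher and 2 lower. LGR5, a receptor of R-spondins and a marker of intestinal stem cells, was read at 33.5, 36.3 and 34.5 and 69.1, 64.4 and 68.8 (log2 fold change 0.95, standard error 0.0491, adjusted p = 1.04e-19). AXIN2 was lower, at 6.78, 6.66 and 5.82 and 3.41, 4.15 and 3.86 (log2 fold change -0.75, adjusted p = 3.25e-05). SP5 was lower too, at 1.12, 2.09 and 2.22 and 0.750, 0.553 and 0.633 (log2 fold change -1.47, adjusted p = 0.000175). The receptor FZD7 (1.09) and the ubiquitin ligase RNF43 (0.98) were higher. RNF43 lost its call without control replicate 1.

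The retinoid list, which holds carriers, enzymes and targets of retinoic acid, had 6 genes called lower and 2 higher of 23 tested. This is 34.8% called, against 5.38% of all genes. At an adjusted p under 0.05 the list was near even, with 9 lower and 8 higher. TGM2, a transglutaminase induced by retinoic acid, was read at 442, 456 and 450.5 normalized CPM in control and 214, 216 and 218 in overexpressing cells (log2 fold change -1.06, standard error 0.0269, adjusted p = 3.24e-30). RARB, a retinoic acid receptor that is its own target, was read at 2.18, 2.47 and 1.70 and 0.477, 0.719 and 0.759 (log2 fold change -1.68, adjusted p = 5.97e-06). CRABP2, which carries retinoic acid to the nucleus, was read at 23.9, 25.2 and 26.6 and 13.4, 17.6 and 16.8 (log2 fold change -0.65, adjusted p = 7.37e-09), and fell under the threshold, at -0.55, without overexpression replicate 1. The retinoic acid hydroxylase CYP26B1 (-1.04), the esterifying enzyme LRAT (-0.91) and the binding protein RBP7 (-0.93) were also lower, each from under 5 normalized CPM. CYP1B1 and PLAAT4 (2.02), a phospholipase induced by retinoids and by interferon, were higher. TGM2 and PLAAT4 are also on the lists of interferon, inflammatory and mesenchymal genes.

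CYP1B1 is a textbook target of the aryl hydrocarbon receptor, so other targets of this receptor were looked up. CYP1A1 was read at 0.504, 0.634 and 1.11 normalized CPM in control and 0.819, 0.553 and 1.01 in overexpressing cells (log2 fold change 0.09, adjusted p = 0.876). AHRR (log2 fold change -0.03, adjusted p = 0.815), TIPARP (log2 fold change 0.18, adjusted p = 0.125) and AHR itself (log2 fold change 0.08, adjusted p = 0.0581) did not pass, and NQO1 was slightly lower (log2 fold change -0.11, adjusted p = 0.00474). ALDH3A1 was called higher by edgeR (log2 fold change 0.59, adjusted p = 0.0207) and lost its call in 7 alternatives, which included the removal of either control replicate 1 or 3 and of any overexpression replicate. It was read at 75.2, 102 and 89.0 in control and 133.97, 131 and 133.9 in overexpressing cells. The core of the response element of this receptor, GCGTG, was found in 34.9% of windows of genes called higher and 36.4% of those called lower, against 48.5% of those tested and 36.5% of all windows of the table.

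The calls among eicosanoid genes were all on the higher side, with 6 higher and 0 lower of 28 tested in edgeR. This is 21.4% called, against 5.38% of all genes, and the median log2 fold change was 0.21. At an unadjusted p under 0.05, 13 were higher and 3 lower, and limma-voom and DESeq2 also called 0 lower. Beside HPGD, PTGFR, the receptor of prostaglandin F, was read at 16.7, 13.5 and 15.8 normalized CPM in control and 33.6, 30.6 and 33.9 in overexpressing cells (log2 fold change 1.08, adjusted p = 6.1e-16), and its regulator PTGFRN at 2.86, 2.79 and 2.09 and 6.07, 6.47 and 5.88 (log2 fold change 1.24, adjusted p = 1.77e-08). The phospholipases PLA2G6 (0.77) and PLA2G7 (0.65) were also called. PTGS2, the inducible cyclooxygenase (log2 fold change 0.75, adjusted p = 0.02), was not called by DESeq2, in the fit of all 11 libraries or when any of 3 libraries was left out. Of 52 fatty acid and storage genes 4 were called, all higher, which is 7.69% against 3.61% of all genes, and the median log2 fold change was 0.01. FABP4, a fatty acid binding protein of adipocytes, was read at 53.5, 54.0 and 53.6 and 91.7, 94.1 and 95.2 (log2 fold change 0.80, adjusted p = 4.7e-20), and ANGPTL4, an inhibitor of lipoprotein lipase, at 2.91, 3.81 and 3.92 and 9.55, 8.96 and 8.86 (log2 fold change 1.37, adjusted p = 2.97e-11). Of 31 cholesterol genes only TM7SF2, a sterol reductase, was called (log2 fold change 0.62, adjusted p = 5e-16), which is 3.23% against 5.38% of all genes. At an adjusted p under 0.05, 12 of the 31 were lower and 5 higher, and the median log2 fold change was -0.06.

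Replication and mitosis genes gave the most uniform change, and it was small. None of the 111 genes was called by edgeR, limma-voom or DESeq2, yet 94 had an adjusted p under 0.05 and were lower, against 18.5% of all genes, while 2 were higher, and at an unadjusted p under 0.05 there were 98 lower and 2 higher. The log2 fold changes ran from -0.40 to 0.29 with a median of -0.21. The summed level was 11680 to 12150 normalized CPM in the control libraries and 10310 to 10460 in the overexpression libraries, with no overlap. TOP2A, a topoisomerase of dividing cells, was read at 402, 369 and 366 in control and 316, 302 and 306 in overexpressing cells (log2 fold change -0.30, adjusted p = 1.48e-10). CCNB1, the mitotic cyclin, was read at 153, 148 and 152 and 125, 122.98 and 119.8 (log2 fold change -0.30, adjusted p = 6e-10), and MKI67, the proliferation marker, at 293, 284 and 273 and 263, 264 and 248 (log2 fold change -0.14, adjusted p = 0.000359). In bulk libraries, fewer cells in cycle and less of these mRNAs per cell cannot be told apart.

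The mRNAs of replication dependent histone genes carry no poly(A) tail in dividing cells, so a library selected for poly(A) sees them only partly. The paper does not say whether these libraries were selected for poly(A). Replication dependent histone genes went the other way from the replication and mitosis genes. Of 23 tested 7 were called higher and 0 lower in edgeR, which is 30.4% against 5.38% of all genes. At an adjusted p under 0.05 there were 12, all higher, and the median log2 fold change of the list was 0.45. At an unadjusted p under 0.05, 13 were higher and 0 lower, and neither limma-voom nor DESeq2 called any lower. H2BC21 was read at 11, 12.4 and 12.1 normalized CPM in control and 24.3, 24.7 and 20.9 in overexpressing cells (log2 fold change 0.98, adjusted p = 4.05e-13), and H2AC6 at 11.5, 13.7 and 13.1 and 22.6, 19.9 and 19.9 (log2 fold change 0.70, adjusted p = 3.66e-09). The other 5, H4C8 (0.94), H3C10 (1.11), H3C6 (0.84), H2BC15 (0.96) and H2BC18 (1.03) by log2 fold change, were lower in level, and H3C6, H2BC15 and H2BC18 were not called by DESeq2. Histone genes are near copies of each other, so reads may be shared among them. The share of reads with a poly(A) tail was not measured, and its part in these values was not tested.

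ATF4 and amino acid response genes were also slightly lower. Of 43 tested 25 had an adjusted p under 0.05 and were lower, and 3 were higher, against 18.5% and 18.8% of all genes. The median log2 fold change was -0.18. ASNS, the asparagine synthetase, was read at 69.7, 66.4 and 69.2 normalized CPM in control and 48.1, 52.4 and 53.5 in overexpressing cells (log2 fold change -0.41, adjusted p = 8.66e-10), and TRIB3, a pseudokinase, at 75.6, 76.1 and 75.6 and 59.1, 59.2 and 61.7 (log2 fold change -0.34, adjusted p = 1.04e-08). CHAC1 (log2 fold change -0.63, adjusted p = 1.08e-06) and ATF3 (log2 fold change -0.66, adjusted p = 0.000995) passed the fold change threshold, and CHAC1 slipped to -0.57 without control replicate 3. GDF15, a stress cytokine that is also a target of p53, rose from 33.0, 34.4 and 34.1 to 72.3, 67.0 and 71.0 (log2 fold change 1.05, standard error 0.0484, adjusted p = 2.76e-21). The other p53 targets stood near the background, with TP53INP1 (log2 fold change 0.64, adjusted p = 2.62e-08) and TP53I11 (log2 fold change 1.32, adjusted p = 1.21e-07) called higher of 35 tested. CDKN1A, the cell cycle inhibitor induced by p53, was lower and under the fold change threshold (log2 fold change -0.34, adjusted p = 0.00061).

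Immediate early and ERK feedback genes showed 3 falls and 1 rise among 41 tested, which is 9.76% called against 5.38% of all genes. DUSP5, a phosphatase of ERK, was read at 157, 157 and 153 normalized CPM in control and 108, 99.2 and 100.5 in overexpressing cells (log2 fold change -0.61, adjusted p = 4.68e-18). CCN1, a matricellular protein and like ANKRD1 a target of YAP, was read at 510.0, 525 and 492 and 343, 308 and 303 (log2 fold change -0.68, adjusted p = 4.04e-11). FOS rose from a low level (log2 fold change 1.35, adjusted p = 0.000927) and was not called in the fit of all 11 libraries. CREB3L1, a membrane bound factor of secretory cells, was read at 49.2, 58.1 and 52.7 and 110.5, 119.8 and 113 (log2 fold change 1.11, adjusted p = 7.38e-22), and was the only called gene of 40 for folding in the endoplasmic reticulum and the unfolded protein response. Of 47 hypoxia and glycolysis genes 3 were called, all higher, which is 6.38% against 5.38% of all genes. They were ANGPTL4, LOX (log2 fold change 0.61, adjusted p = 0.00014) and the carbonic anhydrase CA9. CA9 was read at 0.168, 0.571 and 0.327 and 0.819, 0.774 and 1.27, and its call was lost without control replicate 1 or overexpression replicate 3. LOX slipped to 0.57 without control replicate 3 or overexpression replicate 2.

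Some large groups held no called gene. None of 82 cytosolic ribosomal protein genes and none of 75 respiratory chain and ATP synthase genes was called by edgeR. Of all genes 5.38% were called, but only 1.29% in the highest quintile of expression, so few calls are to be seen among abundant genes. At an adjusted p under 0.05 each group had 5 higher and 13 lower, against 18.8% and 18.5% of all genes. Their medians were -0.02 and -0.03 on the log2 scale. At an unadjusted p under 0.05 there were 9 higher and 21 lower ribosomal genes and 6 higher and 17 lower respiratory genes, and limma-voom and DESeq2 called none of either. No metallothionein of 3 tested was called by edgeR, and none had an adjusted p under 0.05, while 1 was lower at an unadjusted p under 0.05 and limma-voom and DESeq2 called none. MAGEA12, a cancer testis antigen on chromosome X and 1 of 3 such genes tested, had counts of 17, 21 and 21 in control and 2, 3 and 3 in overexpressing cells. It starts at 152733757, in the same region as GABRA3 (152166234 to 152451315) and GABRQ (152637895 to 152658965), which were also lower. These genes did not form a run of neighbouring called genes, so some tested gene between them was not called lower. Of 21 clustered protocadherins 4 were called, all higher, which is 19% against 5.38% of all genes. PCDHGB2 was among them, at 9.02, 9.51 and 9.09 and 12.8, 16.6 and 15.6 (log2 fold change 0.71, adjusted p = 7.07e-08). The genes of this cluster share their last exons, so their counts are uncertain. SERPINE2 was the 1 called serpin (log2 fold change 0.58, adjusted p = 7.77e-11) and stood at the threshold, under which it fell in 7 of 13 alternatives.

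**Figure D3:**
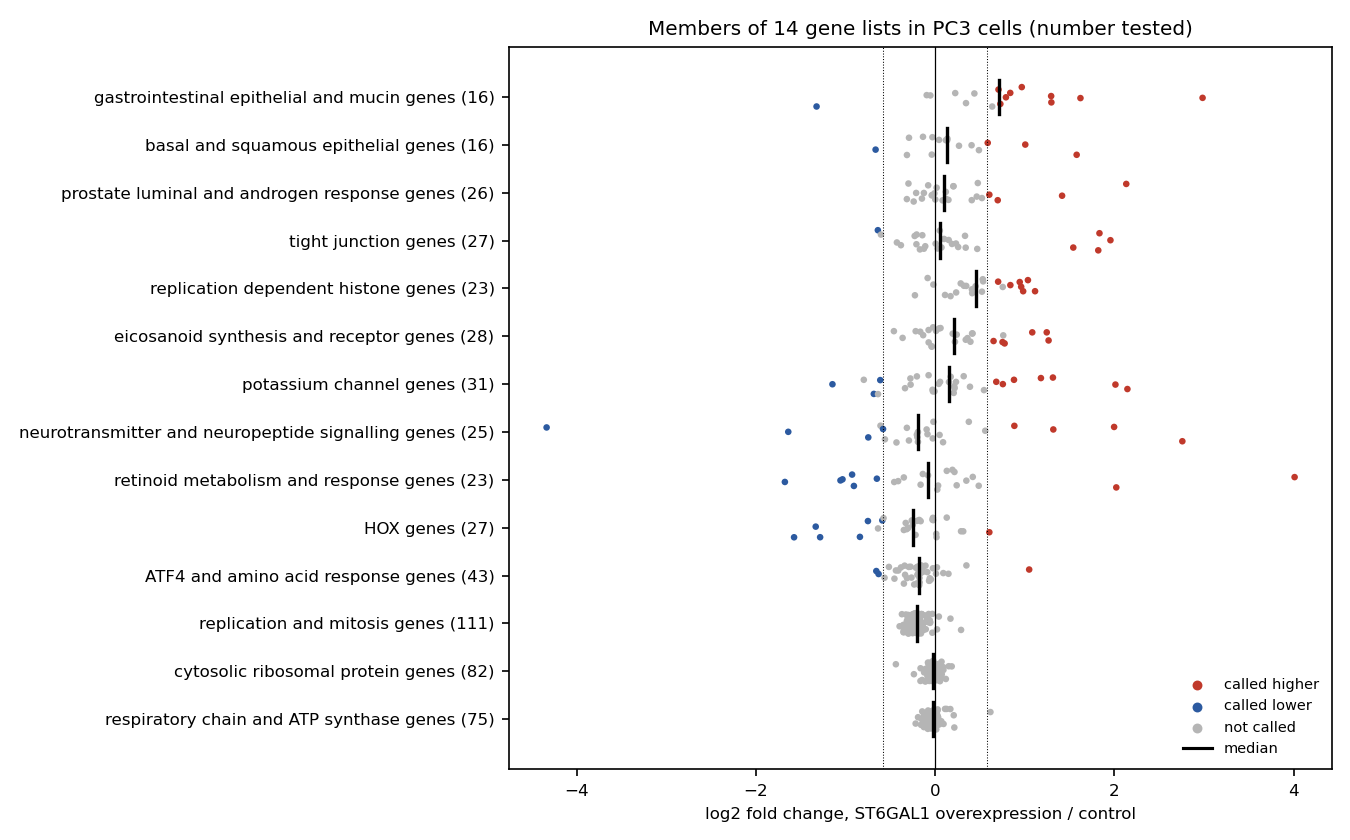
Log2 fold change of ST6GAL1 overexpression over control for each tested member of 14 gene lists, with the number tested beside the name, red for called higher, blue for called lower and grey for not called. The black line is the median, the dotted lines mark 0.58 and -0.58, and the members of the replication and mitosis list sit just left of 0 while the mucin list lies to the right.

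The lists account for 116 of the called genes, and 556 stood on no list of any kind. Calls depended on level, since 16.8% of the genes in the lowest quintile of expression were called, against 1.29% in the highest quintile. Long noncoding RNAs were called at 8.59%, with 56 higher and 11 lower of 780, and protein coding genes at 5.14% of 12283. Noncoding genes had a median of 2.8 normalized CPM and protein coding genes one of 37.8. By chromosome the share ran from 3.23% on chromosome 20 to 8.51% on chromosome 21, and none of 24 mitochondrial genes was called by edgeR or DESeq2, where 14 were higher and 1 lower at an unadjusted p under 0.05 and limma-voom called 1 higher.

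Called genes that neighbour each other formed 8 runs of at least 3 tested genes changed in the same direction. On chromosome 5, F2R, the thrombin receptor, was read at 174, 182 and 181 normalized CPM in control and 296, 298 and 302 in overexpressing cells (log2 fold change 0.74, adjusted p = 9.02e-24), and its neighbour F2RL1, a receptor cleaved by trypsin-like proteases such as matriptase, at 306, 300.4 and 317 and 479.9, 483 and 485 (log2 fold change 0.65, adjusted p = 2.75e-23). The scaffold gene IQGAP2 beside them was also higher (log2 fold change 1.16, adjusted p = 0.000878). On chromosome 11, the matrix metalloproteinases MMP13, at 17.9, 21.4 and 19.3 and 57.9, 62.3 and 61.3 (log2 fold change 1.64, adjusted p = 3.81e-25), and MMP1, at 7.0, 6.79 and 6.73 and 21.2, 21.2 and 25.1 (log2 fold change 1.71, adjusted p = 3.72e-19), rose with MMP10 (log2 fold change 1.29, adjusted p = 0.00743), which was not called by DESeq2. On chromosome 7, CLCN1 (log2 fold change 1.27, adjusted p = 2.52e-12) and FAM131B (log2 fold change 1.44, adjusted p = 5.94e-24) rose, and the antisense gene FAM131B-AS2 overlaps the latter, so that without strand their reads cannot be told apart. The remaining runs held guanylate binding proteins on chromosome 1, FCGR2A with the heat shock genes HSPA6 and HSPA7 on chromosome 1, zinc finger genes at ZNF528 on chromosome 19, CXC chemokines on chromosome 4, which were lower, and protocadherins on chromosome 5.

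The 25 genes named for ST6GAL1, the largest rises and the largest falls were then set beside DU145, in a fit over all 11 libraries that tests the difference between the lines. In 7 of the 25 every DU145 library had a count of 3 or less, so there was nothing to compare (REG4, CST1, NPY1R, DCHS2, UTS2B, PDZRN3 and LOC105373989). Of the other 18, 16 differed between the lines at an adjusted p under 0.05, where 19.7% of 14952 genes did. The genes were picked for large changes in PC3, which is one side of the difference, so this share is fixed in part by the choice and is given as a description. The difference was not one of missing expression for CXADR, which stood at 163.9 normalized CPM in DU145 control and 202.6 in DU145 overexpressing cells, or for CDH3, at 218.3 and 226.8, where the log2 fold changes in DU145 were 0.31 and 0.06. CYP1B1 was at 91.1 and 95.4 normalized CPM in DU145, with a log2 fold change of 0.07. These 3 genes, low in PC3 control cells, stood high in DU145 with or without overexpression.

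ST14 moved in opposite directions, with counts of 221, 239 and 209 in DU145 control libraries and 37 and 59 in DU145 overexpression libraries, a log2 fold change of -2.40 (adjusted p = 4.54e-10, edgeR), against 2.66 in PC3. LAD1 did so as well, with counts of 48, 53 and 33 and then 20 and 30 (log2 fold change -1.01, adjusted p = 0.00249, edgeR). Among the falls, SGK1, ANKRD1 and CCDC80 were higher in DU145, by 0.58 (adjusted p = 0.0107, edgeR), 0.60 (adjusted p = 0.0296, edgeR) and 0.29 (adjusted p = 0.00927, edgeR). HOXB9 had a log2 fold change of -0.17 in DU145 (adjusted p = 0.111, edgeR), with counts of 360, 396 and 317 and then 337 and 385. CCNA1 fell in both lines, by 0.71 on the log2 scale in DU145 (adjusted p = 0.000959, edgeR). For HLF and GBX2 the difference between the lines did not reach an adjusted p of 0.05, at 0.79 (standard error 0.51) and -0.66 (standard error 0.269) for PC3 minus DU145.

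**Figure D4:**
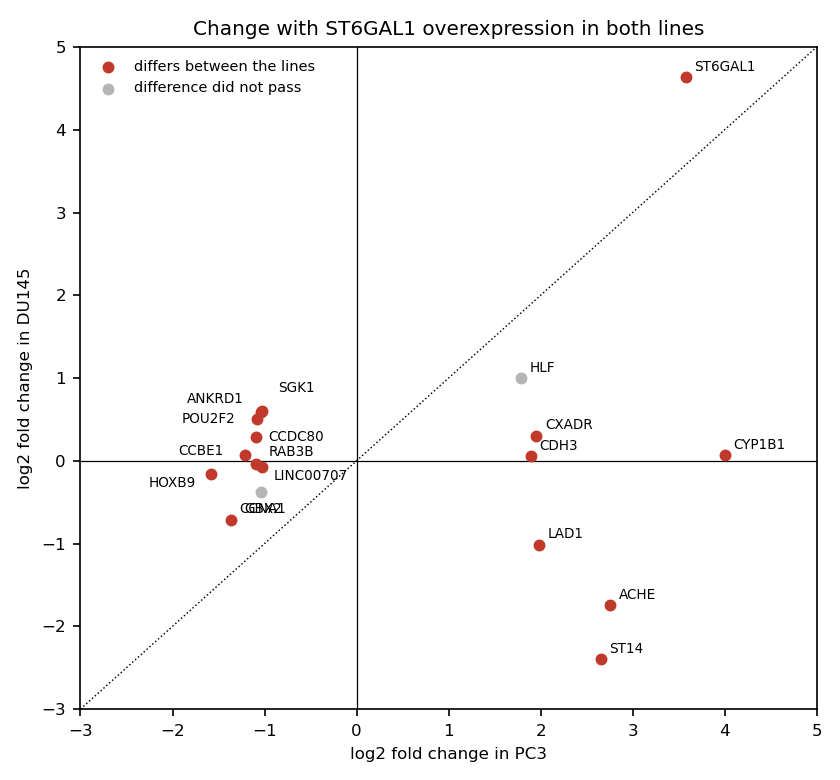
Log2 fold change with ST6GAL1 overexpression in PC3 (horizontal) and in DU145 (vertical) for the 18 named genes read above 3 counts in at least 1 DU145 library, from a fit over 11 libraries, red where the difference between the lines had an adjusted p under 0.05. Points on the dotted diagonal would have changed alike, and ST6GAL1 lies above it. ST14, LAD1 and ACHE lie in the quadrant of a rise in PC3 and a fall in DU145. SGK1, ANKRD1, CCDC80, POU2F2 and CCBE1 lie in the opposite quadrant, where the rises of POU2F2 and CCBE1 in DU145 did not reach an adjusted p of 0.05.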

How the data were processed

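RNA sequencing counts of 6 PC3 libraries and, for the comparison of lines, 5 DU145 libraries were analysed. The authors deposited raw counts per Entrez gene identifier. These had been made in Galaxy from single reads of 75 bp, by trimming (Cutadapt), alignment to hg38 (HISAT2) and counting (featureCounts). The annotation and the strand setting of the counting are not given in the sources used here, so overlapping and antisense genes cannot be separated. Identifiers were named from RefSeq (GRCh38.p14), which matched 97.7% of 28395 genes.

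From the counts, genes passing filterByExpr were tested with edgeR 4.0.16 in R 4.3.3 (TMM factors and the robust quasi-likelihood F test, with Benjamini-Hochberg adjustment over all tested genes). Calls needed both an adjusted p under 0.05 and a log2 fold change beyond 0.58 in size. Standard errors follow from the fold change and the F statistic. The difference between the lines was an interaction term over all 11 libraries. Alternatives were limma-voom (limma 3.58.1), DESeq2 1.42.0, RLE factors, other filters and thresholds, all 11 libraries in a single fit, a replicate block and each library left out in turn.

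Genes were named by rule: ST6GAL1, the 12 largest rises and 12 largest falls among called genes that did not overlap between groups and reached 10 normalized CPM, the next 6 by p, the 2 called members of smallest p in each of 32 gene lists, genes with at most 1 count in one group and at least 10 in the other, and runs of 3 neighbouring called genes. Genes on 3 lists of interferon, inflammatory and mesenchymal genes were kept out of the largest rises and falls, the next 6 by p and the 2 members per list. Other list members, the epithelial genes and their motif were picked after their values were seen. The members and all lists were chosen with earlier results of these data known, and no list was tested for enrichment. Promoter windows are those of RefSeq. Some genes that the rule picks are not reported here.

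The fit was tested on simulated data. Each pair of replicates differed by more than sampling noise.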

Additional observations from a re-analysis of the deposited data

Results flagged for a closer look

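The change in PC3 differed from that in DU145, by the interaction test over 11 libraries at an adjusted p under 0.05, in 16 named genes. The values given are the log2 fold change in PC3 minus that in DU145. For genes that rose in PC3 the difference was 5.05 for ST14, 4.50 for ACHE, 3.94 for CYP1B1, 3.00 for LAD1, 1.84 for CDH3 and 1.65 for CXADR. ACHE was at 6, 7 and 10 counts in the DU145 control libraries and at 1 and 4 with overexpression, close to the floor of 3 counts. For genes that fell in PC3 it was -1.63 for ANKRD1, -1.62 for SGK1, -1.59 for POU2F2, -1.41 for HOXB9, -1.38 for CCDC80, -1.28 for CCBE1, -1.05 for RAB3B, -0.954 for LINC00707 and -0.65 for CCNA1. POU2F2 had at most 8 counts in any DU145 library. For ST6GAL1 itself the difference was -1.06, with a larger rise in DU145. The level of the transgene, the line and the number of libraries differ together between the lines, and their parts in these differences were not tested. With 4 to 10 samples needed for a test of single outlying libraries, the groups of 3 were not examined in this way.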

How the results depend on the processing

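The number of genes called higher (489) was between 387 and 593 over the other tools, filters and normalizations, and that of genes called lower (239) between 193 and 285. With an absolute log2 fold change over 1 they were 209 and 77, by the stricter threshold itself. Leaving out each library in turn gave 431 to 558 genes called higher and 222 to 246 called lower. The log2 fold change of ST6GAL1 stayed between 3.43 and 3.67. Of 165 called genes examined one by one beside ST6GAL1, 133 kept their call in every alternative that tested them and 32 lost it in at least 1, of which 17 with DESeq2 and 30 when a library was left out, and 0 changed sign. Genes that were not called and lay near 0 changed sign as libraries were left out, with log2 fold changes of -0.141 to 0.0335 for ELF3, -0.148 to 0.466 for CYP1A1 and -0.0797 to 0.0311 for AHRR. The difference between PC3 and DU145 for CST1, which has at most 1 count in any DU145 library, went from -0.31 without DU145 overexpression replicate 2 to 2.71 without replicate 3. Of all 25 genes set beside DU145, those near the floor there included, 17 differed between the lines, and 15 to 17 did so in the alternatives. With the replicate number as a block (replicate block), 495 genes were called higher and 245 lower, 716 of them shared with the 728 of the fit without it. Same-numbered libraries did not deviate together (correlations -0.00195, 0.0753 and 0.0608), and 4 of 6 libraries correlated best with their own number, so the numbers were not taken to pair the samples. No scaling moved the median of all genes by more than 0.1 on the log2 scale. Among the lists, tight junction genes had 2 to 5 members called higher, histone genes 4 to 8 and solute carriers 8 to 14, and the cause was not tested. Genes under 1 normalized CPM rest on few counts, and a change there is less reliable than one of an abundant gene.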
